A study of Mus musculus with 8 samples.

Results

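The liver holds blood glucose steady by making glucose, by storing it as glycogen and by releasing it again. Gluconeogenesis builds glucose from lactate, amino acids and glycerol, glycolysis breaks it down to pyruvate, and glycogen synthase and glycogen phosphorylase fill and empty the glycogen store. After part of the liver is removed, the cells that remain carry these tasks while they regrow. The genes described here are 9 of this system: the gluconeogenic enzymes G6pc, Fbp1, Pck1 and Pcx, the pyruvate kinase Pklr, the bifunctional enzyme Pfkfb1, the glycogen enzymes Gys2 and Pygl, and the glucose transporter Slc2a2. They were taken as all probe sets whose platform annotation gives exactly 1 of these symbols. This gave 16 probe sets for 8 of the 9 genes, among 18194 genes with a probe set of a single symbol. Pfkfb1 was not analysed here. All 8 genes passed the filter on low values, as did 14450 genes in all.

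Gene expression was measured on 8 Affymetrix arrays with liver RNA of male C57BL/6 mice aged 7 to 10 weeks. The 4 groups were Tob1 null mice (Tob1KO) 24 h after partial hepatectomy, Tob1 null mice at 0 h with no surgery, and wild type mice (called normal in the labels) at the same 24 h and 0 h. In the operation the median and left lateral lobes were tied off under ketamine and xylazine. Each group had 2 arrays, and every array carried RNA pooled from 3 different animals, so errors below come from the spread between pools. Tob1, a member of the BTG/TOB family of antiproliferative proteins, is called a repressor of regeneration in the study's title. The comparisons ask how genes of glucose metabolism differ after hepatectomy and between the genotypes. No group held sham-operated animals, so surgery and lost liver mass cannot be told apart. The labels give neither feeding state nor time of day at collection.

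Values are log2 signals after quantile normalisation, and a difference of 1 on this scale is a factor of 2. The arrays of a group correlated with each other at 0.949 to 0.960, and precision is limited throughout by having 2 arrays a group. Of 10 hepatocyte markers, 9 were on the arrays and none read below 10.84 in the deposited values. The targeted gene went against the labels in its brighter probe set alone. Its brighter probe set read 10.66 and 10.58 in Tob1KO livers at 24 h and 11.10 and 11.03 in Tob1KO livers at 0 h, against 9.87 and 10.20 in normal livers at 24 h and 10.46 and 10.53 in normal livers at 0 h. It was higher in both arrays labelled Tob1KO at each time, though no difference passed the test. A dimmer probe set, which read between 2.65 and 5.19, was lower on average in the Tob1KO arrays. Its genotype differences were -1.30 at 24 h and -1.25 at 0 h, and neither passed. The sources used here do not say whether either probe set matches sequence that was deleted. The arrays are therefore called Tob1KO-labelled, and each direction between genotypes rests on the labels.

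The promoters of the genes that fell after hepatectomy are shown first, with that of G6pc beside them. RefSeq promoter windows of GRCm38.p6, which run from 250 bases before the transcription start to 50 bases after it, were found for 8 of the 9 genes, in 13 windows (not Gys2). Capitals mark matches, on either strand, to the motifs searched. These were TGTTTAC (forkhead factors, which are known to carry the insulin signal), a second forkhead form TGTTTGC, the insulin response type CAAAACA, the cAMP response element TGACGTCA, through which glucagon is known to act, and its core TGACG. The others were the E-box CACGTG, the C/EBP form TTGCGCAA, a second C/EBP form TTGCACAA, the HNF4 form CAAAGTCCA, a second HNF4 form CAAAGGTCA, the TATA box TATAAA and the NF-Y motif CCAAT. The core lies within the full element, so each full match also counts as a core match. For Pklr, the second of 2 annotated starts is shown, the one used in liver.
Pklr, chr3:89136373-89136672, plus strand: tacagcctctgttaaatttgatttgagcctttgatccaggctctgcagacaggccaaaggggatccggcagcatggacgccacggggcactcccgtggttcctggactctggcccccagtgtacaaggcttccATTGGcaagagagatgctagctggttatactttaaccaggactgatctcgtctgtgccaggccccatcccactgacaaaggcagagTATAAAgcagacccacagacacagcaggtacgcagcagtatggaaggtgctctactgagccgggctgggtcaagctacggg
Pygl, chr12:70227634-70227933, minus strand: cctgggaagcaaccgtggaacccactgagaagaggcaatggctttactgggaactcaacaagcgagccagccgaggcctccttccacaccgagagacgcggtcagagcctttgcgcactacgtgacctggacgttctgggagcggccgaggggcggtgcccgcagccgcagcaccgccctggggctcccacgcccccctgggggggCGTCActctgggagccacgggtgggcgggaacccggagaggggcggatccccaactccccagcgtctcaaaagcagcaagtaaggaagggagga
Slc2a2, chr3:28697653-28697952, plus strand: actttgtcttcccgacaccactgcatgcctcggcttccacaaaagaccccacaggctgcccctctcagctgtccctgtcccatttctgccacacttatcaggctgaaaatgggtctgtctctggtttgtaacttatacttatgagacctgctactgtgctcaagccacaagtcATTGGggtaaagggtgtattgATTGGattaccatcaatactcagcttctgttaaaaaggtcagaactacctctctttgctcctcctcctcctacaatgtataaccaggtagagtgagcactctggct
G6pc, chr11:101367466-101367765, plus strand: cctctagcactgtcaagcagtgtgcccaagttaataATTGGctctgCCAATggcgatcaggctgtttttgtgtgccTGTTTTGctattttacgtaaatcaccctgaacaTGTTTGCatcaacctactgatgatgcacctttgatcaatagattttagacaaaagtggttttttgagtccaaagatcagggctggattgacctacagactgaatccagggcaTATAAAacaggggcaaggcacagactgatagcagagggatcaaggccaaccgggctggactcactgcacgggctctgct

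Counted from the start site as 0, the G6pc window held TATAAA at -29 to -24, the forkhead letters TGTTTGC at -141 to -135, CAAAACA on the other strand at -174 to -168, and CCAAT at -204 to -200 and on the other strand at -214 to -210. Among 32851 promoter windows of the same length, TGTTTGC was present in 5.07%, CAAAACA in 6.28%, TATAAA in 13.6% and CCAAT in 37.4%. The Pklr window had TATAAA at -31 to -26 and CCAAT on the other strand at -117 to -113. In the Slc2a2 window CCAAT was found on the other strand at -77 to -73 and at -56 to -52. The Pygl window held the core TGACG on the other strand at -44 to -40, letters present in 20.8% of windows. Pck1 held the same core at -90 to -86, and Pcx held CACGTG at -248 to -243, which 7.15% of windows have. There was no match in the windows of these genes to the first forkhead form (3.65% of all windows), the full cAMP element (1.79%), either C/EBP form (0.183% and 1.01%) or the first HNF4 form (0.475%). The second HNF4 form (0.478%) matched for Pfkfb1 alone of them. These matches describe letters in the windows and show neither a bound site nor a cause.

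After partial hepatectomy 4 of the 8 genes fell in Tob1KO-labelled livers: the glycogen enzymes Pygl and Gys2, the pyruvate kinase Pklr and the glucose transporter Slc2a2. In normal livers 2 fell, Pygl and Slc2a2. No member rose in either genotype, and the 4 enzymes of gluconeogenesis did not pass the test in either, although Pcx and Fbp1 passed under other settings given with them. Pygl fell 2.43-fold in Tob1KO-labelled and 2.66-fold in normal livers, and Slc2a2 fell 1.44-fold and 1.43-fold in the same genotypes. Among all 14450 genes, 14.7% were called in the response of Tob1KO-labelled livers and 9.21% in that of normal livers. Lower calls alone made up 7.23% and 5.08% of all genes in these responses, and higher calls 7.45% and 4.13%. The members' lower calls were 4 of 8 in Tob1KO-labelled and 2 of 8 in normal livers, a larger share than over all genes. The list is short and was chosen with earlier results of these data known, so this share is no evidence about the members. The 8 genes are also bright, at percentiles 77.6 to 99.5 of gene means. With a filter at the 60th percentile, 28.6% of the genes kept were called in Tob1KO-labelled and 21.8% in normal livers. The median response of the 8 genes was -0.47 in Tob1KO-labelled and -0.42 in normal livers, beside -0.04 and -0.03 over all genes. Calls were made with limma at an adjusted p under 0.05 (Benjamini-Hochberg, over the 14450 genes). In bulk liver RNA, fewer cells of a type and less RNA per cell cannot be told apart.

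**Figure D1:**
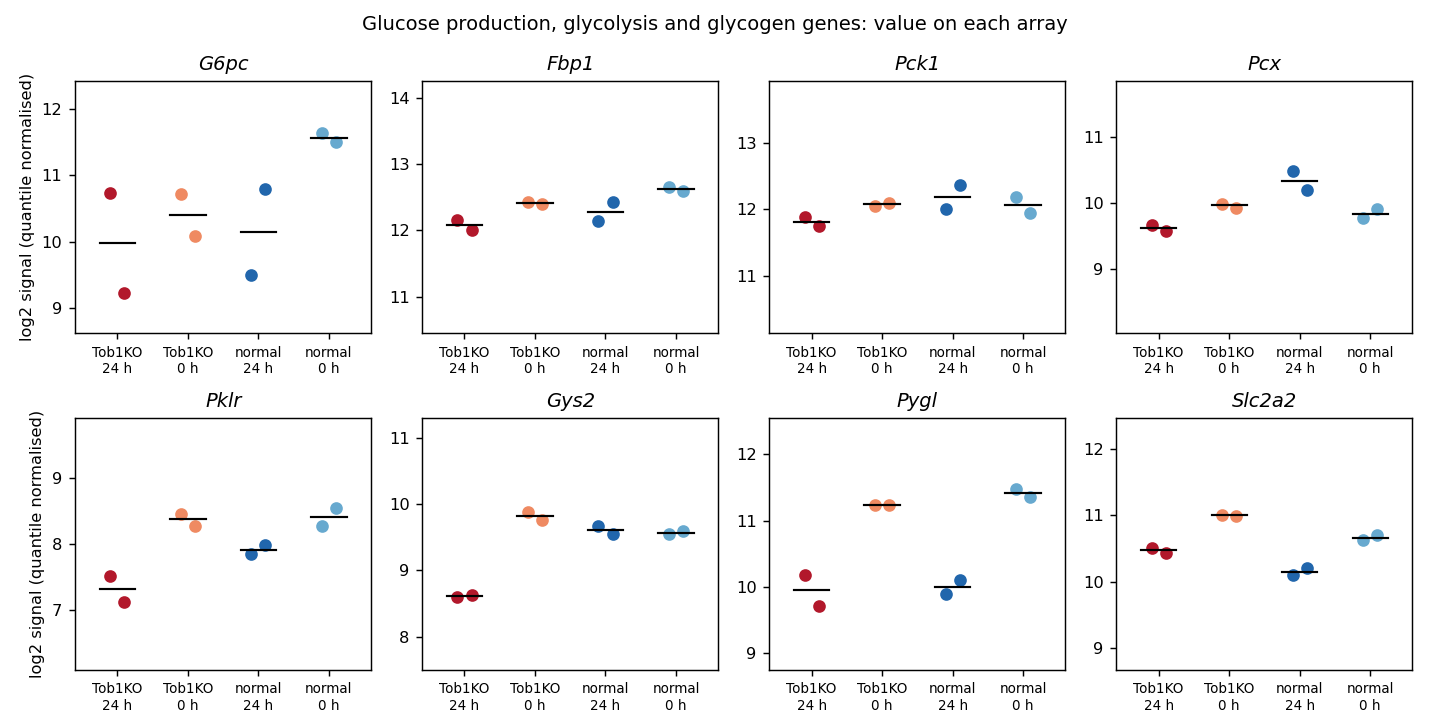
Value of each of the 8 genes on each array: the vertical axis is the quantile normalised log2 signal, the horizontal axis the 4 groups, each point 1 array (a pool of 3 mice) and each bar the mean of the group's 2 arrays. Pygl and Slc2a2 sit lower at 24 h than at 0 h in both genotypes, while Gys2 is low in the Tob1KO-labelled arrays at 24 h alone, at 8.59 and 8.63.

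Pygl encodes the liver glycogen phosphorylase, which releases glucose units from glycogen (12:70190815-70227683 of GRCm38.p6). It read 10.18 and 9.72 in Tob1KO-labelled livers at 24 h, against 11.24 and 11.23 in Tob1KO-labelled livers at 0 h. The normal livers read 9.90 and 10.11 at 24 h, against 11.48 and 11.36 at 0 h. All 4 arrays at 24 h lay below all 4 at 0 h, and within each time the genotypes lay close together. The response was -1.28 ± 0.18 in Tob1KO-labelled livers (SE, adjusted p = 0.0157) and -1.41 ± 0.18 in normal livers (adjusted p = 0.0181). The responses differed by 0.13, with a 95% interval of -0.50 to 0.76 (adjusted p = 0.902). At 24 h the Tob1KO-labelled and normal arrays overlapped, and the genotype difference was -0.06 ± 0.18 (adjusted p = 0.936).

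Gys2 encodes the liver glycogen synthase, which extends glycogen chains (6:142422612-142473130). It read 8.59 and 8.63 in Tob1KO-labelled livers at 24 h, against 9.88 and 9.76 in Tob1KO-labelled livers at 0 h. Normal livers read 9.66 and 9.55 at 24 h, against 9.54 and 9.59 at 0 h. Both Tob1KO-labelled arrays at 24 h thus lay below all the other 6 arrays, which spanned 9.54 to 9.88. The response was -1.22 ± 0.12 in Tob1KO-labelled livers, a 2.32-fold fall (adjusted p = 0.0109), and 0.04 ± 0.12 in normal livers (adjusted p = 0.843). The difference between the responses was -1.26 ± 0.17, with a 95% interval of -1.66 to -0.85. It ranked 11 of 14450 genes by unadjusted p (0.000273) and did not pass over all genes (adjusted p = 0.301), where 0% of genes were called. The genotype difference at 24 h, -1.003 ± 0.12 or 2.00-fold lower in Tob1KO-labelled livers, ranked 10 and missed the threshold as well (adjusted p = 0.147). This genotype difference passed with 16 added to each signal on the linear scale (adjusted p = 0.0366) and with a trended and robust prior (adjusted p = 0.00581), and with that prior the difference between responses passed too (adjusted p = 0.0237). At 0 h the genotype difference was 0.26 ± 0.12 (adjusted p = 0.560).

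Pklr encodes the pyruvate kinase of liver and red cells, which makes the last product of glycolysis, pyruvate (3:89136122-89146815). It read 7.52 and 7.13 in Tob1KO-labelled livers at 24 h, against 8.46 and 8.28 in Tob1KO-labelled livers at 0 h. In normal livers it read 7.85 and 7.98 at 24 h, against 8.27 and 8.55 at 0 h. The lowest values were those of the Tob1KO-labelled arrays at 24 h, and the times did not overlap in either genotype. The response was -1.05 ± 0.19 in Tob1KO-labelled livers (2.07-fold, adjusted p = 0.0240) and -0.50 ± 0.19 in normal livers, where it did not pass (adjusted p = 0.143). The difference between the responses was -0.55, with a 95% interval of -1.19 to 0.09 (adjusted p = 0.616). Its other 2 probe sets differed by -0.83 (adjusted p = 0.0339 in the fit of probe sets) and -0.85 (adjusted p = 0.0515) in Tob1KO-labelled livers, and by -0.71 each in normal livers (adjusted p = 0.0611 and 0.0965). All 3 probe sets therefore read lower at 24 h in both genotypes, and with the mean over them the Tob1KO-labelled response was -0.91 (adjusted p = 0.0227).

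Slc2a2 encodes GLUT2, the glucose transporter of the hepatocyte membrane (3:28697903-28728361). It read 10.51 and 10.43 in Tob1KO-labelled livers at 24 h, against 11.01 and 10.99 in Tob1KO-labelled livers at 0 h. The normal livers read 10.10 and 10.20 at 24 h, against 10.62 and 10.70 at 0 h. The times were separate in each genotype, and at each time both Tob1KO-labelled arrays lay above both normal arrays. The response was -0.53 ± 0.11 in Tob1KO-labelled livers (adjusted p = 0.0360) and -0.51 ± 0.11 in normal livers (adjusted p = 0.0477), with a difference between responses of -0.01 (95% interval -0.41 to 0.38). Neither call held with median centring (adjusted p = 0.106 in Tob1KO-labelled and 0.0787 in normal livers) or with no filter on low values (0.067 and 0.088). The genotype difference did not pass at 24 h (0.32 ± 0.11, adjusted p = 0.368) or at 0 h (0.34 ± 0.11, adjusted p = 0.488).

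The calls rest on few arrays. Without the first or the second Tob1KO-labelled array at 0 h, no member was called in that genotype: the adjusted p was 0.0714 and 0.0589 for Gys2, 0.0896 and 0.0743 for Pygl, 0.124 and 0.0842 for Pklr, and 0.160 and 0.133 for Slc2a2. In these fits only 33 and 30 of all genes were called. Without the second Tob1KO-labelled array at 24 h, Pklr (0.0718) and Slc2a2 (0.1001) were lost, and Slc2a2 was also lost without the first of them (0.0633), without either normal array at 0 h (0.0718 and 0.0716) or without the second normal array at 24 h (0.0508). In normal livers, Pygl was lost without either normal array at 0 h (0.111 and 0.0887) and without the first at 24 h (0.0879). Slc2a2 was lost there whichever of the 8 arrays was left out, with an adjusted p between 0.0526 and 0.188. The sign of each of these responses was the same in every such fit.

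**Figure D2:**
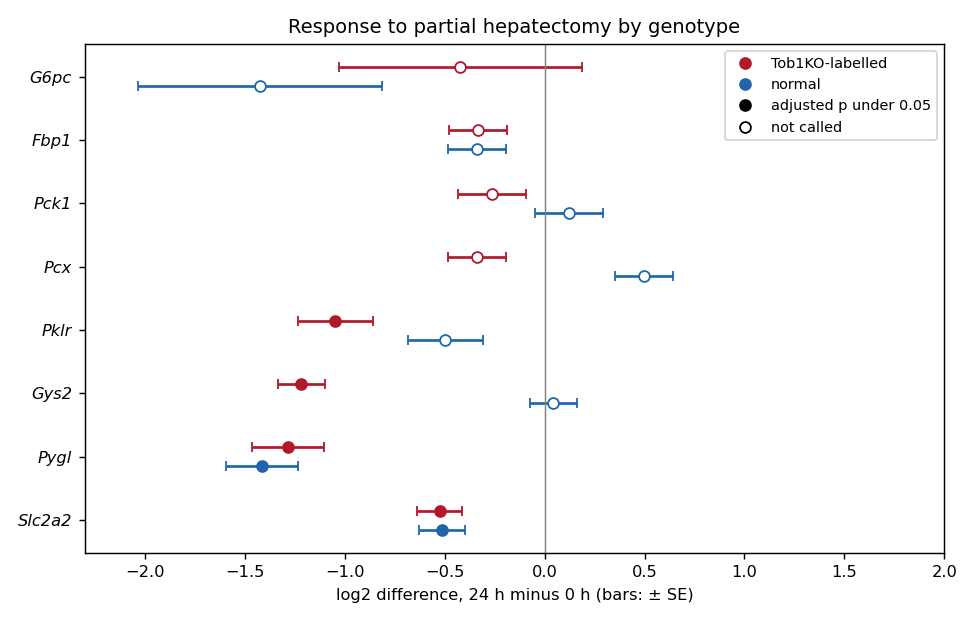
Response to hepatectomy of the 8 genes: the horizontal axis is the log2 difference of 24 h minus 0 h, with bars of ± 1 SE, above for Tob1KO-labelled and below for normal livers (2 arrays against 2), and filled points passed at an adjusted p under 0.05. Gys2 lies at -1.22 in Tob1KO-labelled and at 0.04 in normal livers, while the points of Pygl and Slc2a2 nearly coincide between genotypes.

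None of the gluconeogenic enzymes passed, and G6pc had the widest spread of the 8 genes. G6pc, the catalytic subunit of glucose-6-phosphatase that frees glucose for release (11:101367716-101377903), read 10.73 and 9.23 in Tob1KO-labelled livers at 24 h, against 10.72 and 10.09 in Tob1KO-labelled livers at 0 h. Normal livers read 9.50 and 10.79 at 24 h, against 11.64 and 11.50 at 0 h. The 2 normal arrays at 0 h were the highest of all 8, and at 24 h the arrays of a group lay far apart (SD 1.06 in Tob1KO-labelled and 0.91 in normal livers). The response was -0.42 ± 0.61 in Tob1KO-labelled livers (adjusted p = 0.664) and -1.42 ± 0.61 in normal livers (adjusted p = 0.182). At 0 h the genotype difference was -1.17 ± 0.61 (adjusted p = 0.594), with both Tob1KO-labelled arrays below both normal arrays. The difference between the responses, 1.003, had a 95% interval of -1.10 to 3.11, so a difference of this size was not detectable with these arrays. Without the second Tob1KO-labelled array at 24 h the response of that genotype was 0.33, the opposite sign.

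Fbp1, the fructose-1,6-bisphosphatase of liver (13:62864753-62888298), read 12.16 and 12.01 in Tob1KO-labelled livers at 24 h, against 12.43 and 12.40 in Tob1KO-labelled livers at 0 h. In normal livers it read 12.14 and 12.43 at 24 h, against 12.66 and 12.59 at 0 h. Both genotypes read lower at 24 h with no overlap of the times. The response was -0.33 ± 0.14 in Tob1KO-labelled livers (adjusted p = 0.168) and -0.34 ± 0.14 in normal livers (adjusted p = 0.181), and neither passed. With a trended and robust prior both did (adjusted p = 0.0448 and 0.0482). The responses differed by 0.01, with a 95% interval of -0.49 to 0.51.

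Pck1, the cytosolic phosphoenolpyruvate carboxykinase (2:173153073-173159274), read 11.88 and 11.75 in Tob1KO-labelled livers at 24 h, against 12.05 and 12.10 in Tob1KO-labelled livers at 0 h. The normal livers read 12.01 and 12.36 at 24 h, against 12.19 and 11.94 at 0 h. The Tob1KO-labelled arrays at 24 h were the lowest, and the normal arrays overlapped between the times. The response was -0.26 ± 0.17 in Tob1KO-labelled livers (adjusted p = 0.325) and 0.12 ± 0.17 in normal livers (adjusted p = 0.675). The probe sets of Pck1 disagreed. The second differed by 0.47 in Tob1KO-labelled (adjusted p = 0.385) and 0.52 in normal livers (adjusted p = 0.379), while the third, which read between 2.29 and 4.64, differed by -1.62 (adjusted p = 0.0472) and -1.20 (adjusted p = 0.112). The last passed in Tob1KO-labelled livers in the fit of 30525 probe sets, but it lies about the filter limit of 3.599, where a difference is imprecise.

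Pcx, the pyruvate carboxylase that feeds oxaloacetate to gluconeogenesis (19:4510472-4621752), read 9.67 and 9.58 in Tob1KO-labelled livers at 24 h, against 9.99 and 9.93 in Tob1KO-labelled livers at 0 h. Normal livers read 10.48 and 10.19 at 24 h, against 9.77 and 9.91 at 0 h. The 2 Tob1KO-labelled arrays at 24 h were the lowest and the 2 normal arrays at 24 h the highest of the 8. The response was -0.34 ± 0.15 in Tob1KO-labelled livers (adjusted p = 0.163) and 0.50 ± 0.15 in normal livers (adjusted p = 0.0841). The genotype difference at 24 h was -0.71 ± 0.15, with a 95% interval of -1.06 to -0.35 (adjusted p = 0.225). None of these passed. The difference in normal livers did pass with a filter at the 60th percentile (adjusted p = 0.0449), with 16 added on the linear scale (0.0497) and with a trended and robust prior (0.0198), and the genotype difference at 24 h passed with that prior (0.0362).

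Pcx is also read by 4 control probe sets of the array, along the transcript. They were left out of the fit and have values only. The control at the 3' end differed by -0.37 in Tob1KO-labelled and 0.52 in normal livers between 24 h and 0 h, as the fitted probe set did. The control at the 5' end differed by 0.71 in Tob1KO-labelled and 0.65 in normal livers, and the 2 between them by 0.90 and -0.44 in Tob1KO-labelled and by 0.69 and -0.11 in normal livers. The sign of the Tob1KO-labelled response thus depended on which stretch of the transcript was read. At 24 h all 5 probe sets read lower in Tob1KO-labelled than in normal livers, with differences of -0.72 to -0.43.

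**Figure D3:**
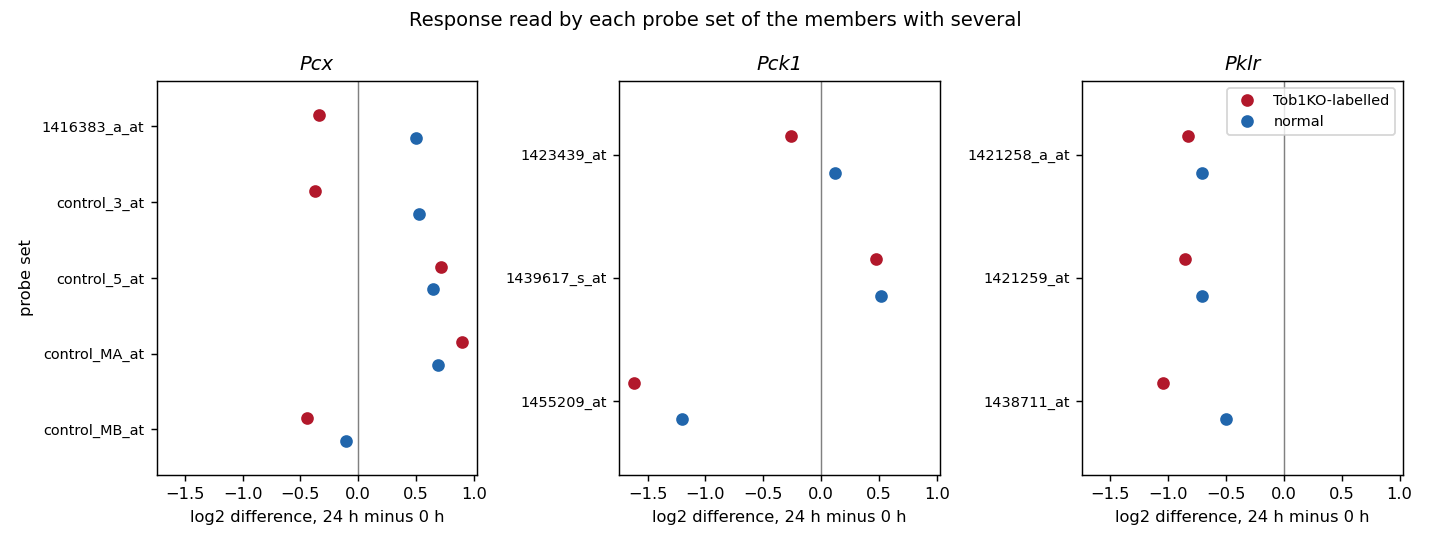
Response read by each probe set of the 3 genes with several: the horizontal axis is the log2 difference of 24 h minus 0 h between means of 2 arrays, above for Tob1KO-labelled and below for normal livers, without error bars. The 3 probe sets of Pklr lie below 0 in both genotypes, while those of Pck1 and of Pcx lie on both sides of 0 in both genotypes, for Pcx in normal livers through a single control at -0.11.

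How far 3' controls read above 5' controls, which depends on RNA quality, moved with group and was largest in Tob1KO-labelled livers at 0 h. For Pcx the 3' control exceeded the 5' control by 3.03 and 3.18 in Tob1KO-labelled livers at 24 h and by 4.39 and 4.21 in Tob1KO-labelled livers at 0 h. In normal livers it exceeded it by 3.48 and 2.87 at 24 h and by 3.10 and 3.82 at 0 h. For actin the distance was 1.22 and 1.32 in Tob1KO-labelled livers at 24 h and 1.59 and 1.54 in Tob1KO-labelled livers at 0 h, against 1.03 and 0.91 in normal livers at 24 h and 1.04 and 1.40 in normal livers at 0 h. Gapdh showed the same highest group, at 0.54 and 0.51. Its part in the responses of the members was not tested.

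Markers of cell types were summed on the linear scale. These sums and the readings of single markers are of the deposited values, before quantile normalisation. The 9 hepatocyte markers summed to 71950 and 69340 in Tob1KO-labelled livers at 24 h and to 64440 and 65990 in Tob1KO-labelled livers at 0 h, against 75480 and 73550 in normal livers at 24 h and 67040 and 65590 in normal livers at 0 h. The sum was thus higher at 24 h in both genotypes. It is weighted to the brightest markers, such as Apoa1 (13.59 to 13.89) and Fgb (13.05 to 13.86), over others such as Hnf4a (10.84 to 11.68). It does not measure the share of hepatocytes. Of the 9 markers, 1 was called in the response of Tob1KO-labelled and 0 in that of normal livers. Of 5 erythroid markers, 2 were on the arrays. They summed to 363.8 and 402 in Tob1KO-labelled livers at 24 h and to 776.4 and 927.6 in Tob1KO-labelled livers at 0 h, against 580 and 573.4 in normal livers at 24 h and 1326 and 1264 in normal livers at 0 h. Red cell precursors also use Pklr, and of the erythroid markers Alas2 read 8.48 to 10.36 and Hba-a1 0.55 to 3.92 over the arrays. The part of these cells in the fall of Pklr was not tested. The 7 lymphocyte and neutrophil markers measured summed to 315.9 and 393.3 in Tob1KO-labelled livers at 24 h and to 203.5 and 230 in Tob1KO-labelled livers at 0 h, against 750 and 234.3 in normal livers at 24 h and 205.3 and 224.9 in normal livers at 0 h. Over the 8 arrays the sums ran from 1883 to 2797 for Kupffer cell and macrophage markers, from 917.2 to 1409 for endothelial, from 1661 to 2236 for stellate and fibroblast, and from 70.24 to 281 for ductal markers. The 4 pancreas markers on the arrays summed to 211.7 and 241.8 in Tob1KO-labelled livers at 24 h and to 439.2 and 496.5 in Tob1KO-labelled livers at 0 h, against 224.6 and 179.7 in normal livers at 24 h and 595.7 and 439.4 in normal livers at 0 h. Like the means of Pygl, Slc2a2 and Pklr, and unlike Gys2 in normal livers, these markers summed lower at 24 h in both genotypes. Among them Cela1 read 7.35 to 9.19 and fell in both genotypes (adjusted p = 0.0267 in Tob1KO-labelled and 0.0220 in normal livers), while Cpa1 read 0 to 2.04 and Prss2 and Ins2 at most 3.71 and 2.55. Their part in the members' responses was not tested.

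Between genotypes no member passed at 24 h, where 0.00692% of all genes (1 gene) were called, or at 0 h, where 0% were. At an unadjusted p under 0.05 the counts over all genes were 1695 at 24 h, 1390 at 0 h and 1244 for the difference between responses. At 24 h, 7 of the 8 members had a lower mean in Tob1KO-labelled than in normal livers, all but Slc2a2, with a median of -0.28 beside 0.01 over all genes. For G6pc and Pygl of these the sign turned with median centring, to 0.02 and 0.14. At 0 h the median was -0.01, and 4 of 8 means were lower. The difference at 24 h was -0.59 ± 0.19 for Pklr (adjusted p = 0.337) and -0.37 ± 0.17 for Pck1 (adjusted p = 0.466), with both Tob1KO-labelled arrays below both normal arrays for each. Since both comparisons use the same 24 h arrays, the genotype difference at 24 h and the difference between responses are not separate evidence.

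By group mean the genes fell into 4 orders. G6pc, Fbp1, Pklr and Pygl were highest in normal livers at 0 h, then Tob1KO-labelled at 0 h, normal at 24 h and Tob1KO-labelled at 24 h. Pck1 and Pcx were highest in normal livers at 24 h, then Tob1KO-labelled at 0 h, normal at 0 h and Tob1KO-labelled at 24 h. Gys2 followed Tob1KO-labelled at 0 h, normal at 24 h, normal at 0 h and Tob1KO-labelled at 24 h, the middle groups being indistinguishable within their spread. Slc2a2 alone had its lowest mean in normal livers at 24 h. Neighbours whose arrays overlapped were the Tob1KO-labelled and normal livers at 24 h for G6pc, Fbp1 and Pygl, those at 0 h for Pklr and Pck1, and the normal 24 h and Tob1KO-labelled 0 h livers for G6pc, Fbp1 and Pck1. The groups of Slc2a2 and of Pcx did not overlap with their neighbours in the order, by a narrow margin for Pcx at 0 h.

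Genes around these enzymes were followed in 8 lists of 135 measured genes. In Tob1KO-labelled livers 11 of them rose and 22 fell, 24.4% of the 135 beside 14.7% of all genes. In normal livers 10 rose and 8 fell, 13.3% beside 9.21% of all genes. No gene of the lists passed between genotypes or in the difference between responses. Of 17 partners of gluconeogenesis and glucose output, none passed in Tob1KO-labelled livers, and Gpt2, a mitochondrial alanine transaminase, was the only 1 in normal livers. Gpt2 read 12.26 and 11.57 in normal livers at 24 h, against 10.78 and 10.56 at 0 h, and rose by 1.24 (adjusted p = 0.0437). None of the 11 genes of fructose, galactose and pentose phosphate metabolism passed in either genotype.

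In glycolysis, 4 of 19 genes rose and 1 fell in Tob1KO-labelled livers, and 3 rose and 1 fell in normal livers. These shares, 26.3% and 21.1%, stand beside 14.7% and 9.21% of all genes. The muscle-type pyruvate kinase Pkm, whose product is made in adult hepatocytes mainly by Pklr, read 6.37 and 6.45 in Tob1KO-labelled livers at 24 h, against 5.21 and 5.37 at 0 h, and 6.69 and 6.31 in normal livers at 24 h, against 5.59 and 5.38 at 0 h. Pkm thus rose by 1.12 in Tob1KO-labelled and 1.01 in normal livers (adjusted p = 0.0183 and 0.0268), opposite to Pklr in Tob1KO-labelled livers. Aldoa, the aldolase of muscle and many other tissues, rose by 0.75 in Tob1KO-labelled and 1.02 in normal livers (adjusted p = 0.0459 and 0.0292), and Aldoc, the brain-type aldolase, fell, with responses of -0.95 and -1.13 (adjusted p = 0.0135 and 0.0158). Tigar, which lowers fructose-2,6-bisphosphate, rose by 1.13 and 1.32. The triose phosphate isomerase Tpi1 rose by 0.70 in Tob1KO-labelled livers (adjusted p = 0.0255). The median over the list was -0.07 in Tob1KO-labelled and 0.15 in normal livers.

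Among 23 other genes of glycogen metabolism, 3 rose and 1 fell in Tob1KO-labelled livers, and 2 rose in normal livers. These shares, 17.4% and 8.70%, lie near the 14.7% and 9.21% called among all genes, so the count is no result about the list. Pgm3, a mutase that acts on hexosamines, read 8.35 and 8.61 in Tob1KO-labelled livers at 24 h, against 6.55 and 6.50 at 0 h, and 9.36 and 9.33 in normal livers at 24 h, against 6.95 and 6.89 at 0 h. It rose by 1.96 in Tob1KO-labelled and 2.43 in normal livers (adjusted p = 0.00648 and 0.00477), although its known role is in amino sugar synthesis. The phosphoglucomutase Pgm2 rose by 1.87 and 1.86 in the same order of genotypes (adjusted p = 0.0393 and 0.0499). Gyg, glycogenin, the primer of glycogen chains, rose by 0.75 in Tob1KO-labelled livers (adjusted p = 0.0377), and Pgm1 fell by 0.47 (adjusted p = 0.0444). Gyg and Gys2, which begin and extend the same chains, thus moved in opposite directions in Tob1KO-labelled livers.

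Of 11 genes of the pyruvate dehydrogenase complex and its kinases and phosphatases, 1 rose and 2 fell in Tob1KO-labelled livers. This is 27.3% of a short list, beside 14.7% of all genes. None passed in normal livers, beside 9.21% of all genes. The kinases Pdk2 and Pdk1, which switch the complex off, fell, with responses of -1.97 and -1.04 (adjusted p = 0.0188 and 0.0189), and the subunit Dld rose by 0.78 (adjusted p = 0.0288). Pdk4, the kinase known to be induced by fasting, read 7.29 and 8.71 in Tob1KO-labelled livers at 24 h, against 4.57 and 4.47 at 0 h, and 9.87 and 7.22 in normal livers at 24 h, against 6.08 and 5.73 at 0 h. All arrays at 24 h lay above all at 0 h, but the difference did not pass in Tob1KO-labelled (3.48, adjusted p = 0.0509) or normal livers (2.64, adjusted p = 0.112).

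Among 24 genes of hormone signalling, 2 rose and 5 fell in Tob1KO-labelled livers, 29.2% beside 14.7% of all genes. In normal livers the share called, 12.5%, lies near the 9.21% of all genes, so that count is no result about the list. The insulin receptor Insr had a response of -0.93, the glucocorticoid receptor Nr3c1 of -0.67, the glucagon receptor Gcgr of -0.69, the AMPK subunit Prkaa2 of -0.83 and Stk11, the kinase upstream of AMPK, of -0.58. These are the 5 that fell. In normal livers 3 rose: Fkbp5, a glucocorticoid target, by 1.88, Grb14, an inhibitor of the insulin receptor, by 0.80, and Prkaa1, an AMPK subunit, by 0.63. Igfbp1, a secreted protein that insulin is known to repress, read 10.75 and 10.56 in Tob1KO-labelled livers at 24 h, against 8.82 and 8.88 at 0 h, and 12.36 and 11.89 in normal livers at 24 h, against 11.36 and 11.55 at 0 h. It rose by 1.80 in Tob1KO-labelled livers (adjusted p = 0.0112), where the other gene that rose was Sik1, a kinase of the cAMP pathway, by 2.42 (adjusted p = 0.0445). At 0 h it read lower in Tob1KO-labelled than in normal livers without overlap, a difference of -2.60 ± 0.19 that did not pass (adjusted p = 0.0943), as the difference of -1.47 at 24 h did not (adjusted p = 0.147).

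Of 24 transcriptional regulators, 11 fell and 1 rose in Tob1KO-labelled livers, and 5 fell and 1 rose in normal livers. These shares, 50% and 25%, stand beside 14.7% and 9.21% of all genes. The median over the list was -0.79 in Tob1KO-labelled and -0.20 in normal livers, beside -0.04 and -0.03 over all genes. Nr1d1, the clock repressor REV-ERB alpha, read 4.23 and 3.82 in Tob1KO-labelled livers at 24 h, against 8.10 and 7.80 at 0 h, and 3.77 and 4.33 in normal livers at 24 h, against 6.59 and 7.34 at 0 h. Its response was -3.92 in Tob1KO-labelled and -2.92 in normal livers, a fall in both (adjusted p = 0.00873 and 0.0158). Srebf1, which encodes the insulin-regulated factor SREBP1, fell by 2.27 in Tob1KO-labelled livers and also in normal livers, where the response was -1.96. Mlxipl, the glucose-sensing factor ChREBP for which Pklr is a classic target, read 6.92 and 5.97 in Tob1KO-labelled livers at 24 h, against 8.90 and 8.59 at 0 h, and 6.39 and 7.07 in normal livers at 24 h, against 8.97 and 8.91 at 0 h. Its response was -2.303 in Tob1KO-labelled and -2.21 in normal livers, again a fall in both (adjusted p = 0.0189 and 0.0250). Cebpa, a factor of the mature hepatocyte, had responses of -1.97 in Tob1KO-labelled and -1.38 in normal livers, and Ppargc1b, a coactivator, of -1.61 and -2.14, all of them called. Klf9, a factor induced by glucocorticoids, fell by 0.998 in Tob1KO-labelled livers, where the only regulator that rose was Mlx, the partner of ChREBP, by 1.14. In normal livers the only one that rose was Creb3l3, a factor of the fasting liver, by 0.69. Of the 6 other hexose transporters measured, Slc2a9, a urate and hexose transporter, fell in both genotypes, with responses of -1.26 in Tob1KO-labelled and -1.08 in normal livers. Slc5a2, known as a sodium glucose cotransporter of kidney, likewise had responses of -1.59 and -1.54. These 2 made up 33.3% of the short list in each genotype, beside 14.7% and 9.21% of all genes.

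**Figure D4:**
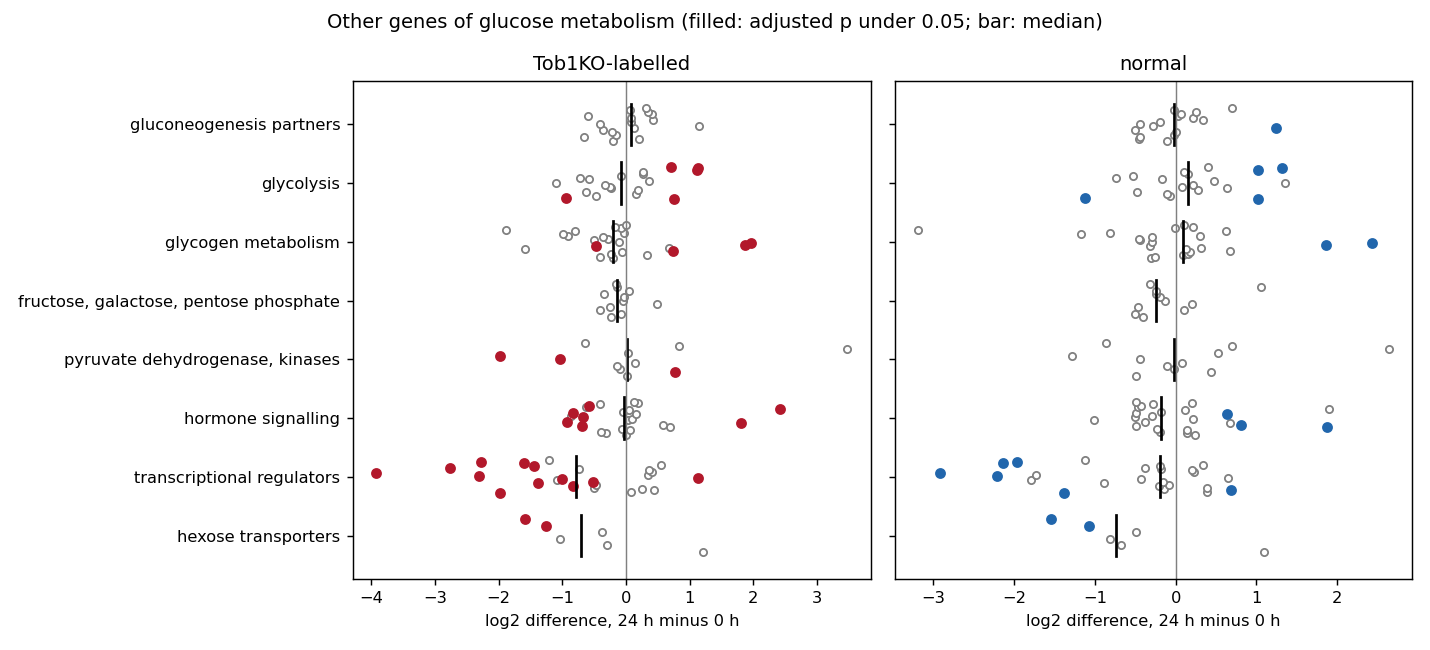
Response of the 135 other genes of glucose metabolism by list: the horizontal axis is the log2 difference of 24 h minus 0 h, on the left for Tob1KO-labelled and on the right for normal livers, each point 1 gene, filled where the adjusted p was under 0.05, and each bar the median of its list. In Tob1KO-labelled livers 11 of the 24 transcriptional regulators lie among the filled points below 0, with a list median of -0.79.

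For the 4 genes called in a response, the genes with the most similar values over the 8 arrays were sought among 7103 brighter genes by Pearson's r. The 8 points share groups, so the correlation follows group means and is given as a description. For Pygl these were Stra6l (0.996), Cyp4f14 (0.995) and Emc10 (0.995), and for Slc2a2 Limd2 (0.994), Psmb10 (0.988) and Ninj1 (0.986). For Pklr they were Tpp1 (0.990), Rnpepl1 (0.987) and Fads1 (0.984). For Gys2 they were Trim33 (0.980), Slc27a2 (0.979) and Zfhx3 (0.973). Slc27a2, a fatty acid transporter of the hepatocyte, read 11.81 and 11.70 in Tob1KO-labelled livers at 24 h and 12.56 and 12.54 in Tob1KO-labelled livers at 0 h, against 12.45 and 12.53 in normal livers at 24 h and 12.46 and 12.49 in normal livers at 0 h. Like Gys2, it was lower in the Tob1KO-labelled arrays at 24 h than in the other 6, as its choice by likeness to Gys2 implies.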

How the data were processed

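The deposited values of 8 arrays (45101 probe sets) are log2 signals, as read from the values themselves. The 2% trimmed mean on the linear scale lay between 95.1 and 99.9 in every array, a sign that the authors scaled them. The sources used here do not name the signal algorithm. After 64 control probe sets were left out, values were quantile normalised between arrays. The 4 Pcx controls were placed on this scale by interpolation. Probe sets had to exceed the array's percentile 40 (3.599) on 2 or more arrays. Among probe sets of 1 symbol, that of highest mean represented the gene, which left 14450 genes. Gene names are those of the platform annotation.

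All 8 arrays entered 1 linear model of group means in limma 3.58.1 (R 4.3.3, lmFit and eBayes, 4 residual and 2.01 prior degrees of freedom). A gene was called at a two-sided adjusted p under 0.05 (Benjamini-Hochberg, over the genes tested). A second fit of 30525 probe sets gave the values of single probe sets. The procedure was tested on simulated data.

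The members, the gene lists, the motifs and the markers were chosen with earlier results of these data known, so no list is independent evidence. Named were all members and Tob1, from each list up to 4 genes with the smallest p in a comparison (counts of 5 or fewer in full), and the 3 genes most like each called member among tested genes brighter than the median of genes. Mlxipl, Cebpa and Ppargc1b are among the 5 regulators that fell in normal livers, and their values in Tob1KO-labelled livers stand beside these. Of 156 genes listed, 21 were not tested. Of these, 13 had no probe set matched here, and 8 had only probe sets that were below the filter or left out as controls. The alternatives were the deposited values, median centring, other filters, the mean of probe sets, 16 added on the linear scale, a trended and robust prior, a replicate block, the groups compared alone, an adjusted p under 0.1, all probe sets as rows and each array left out. A crossed block was added after the data were seen. Same-numbered arrays of different groups deviated with correlations of -0.197 to 0.05, so the numbers give no clear pairing of same-numbered arrays. The lowest were -0.197 between the genotypes at 24 h and -0.11 between them at 0 h. A crossed pairing was not tested beyond the crossed block. Sequences and positions are RefSeq's on GRCm38.p6.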

Additional observations from a re-analysis of the deposited data

Results flagged for a closer look

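Pcx was flagged because its response to hepatectomy had opposite signs in the genotypes, with no overlap of the times in either genotype. It was picked by this pattern after all measured members were searched. With so few arrays a group, unchanged genes can also show such a pattern. The share of all genes that show it is not given here, so the flag alone does not set Pcx apart. Both Tob1KO-labelled arrays at 24 h (9.67 and 9.58) lay below both at 0 h (9.99 and 9.93), while both normal arrays at 24 h (10.48 and 10.19) lay above both at 0 h (9.77 and 9.91). The difference between the responses was -0.836 ± 0.21 on the log2 scale (SE, 2 arrays per group). In the limma test of this difference over all 14450 genes it did not pass (adjusted p = 0.531). Of the 4 control probe sets along Pcx, only that at the 3' end gave opposite signs as well, with -0.37 in Tob1KO-labelled and 0.52 in normal livers.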

How the results depend on the processing

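The 4 calls in Tob1KO-labelled livers became 2 with a replicate block (Gys2 and Pygl), 0 when the fit held only the groups compared, where limma called 0 of all 14450 genes (4248 at an unadjusted p under 0.05), and 5 with a trended and robust prior (Fbp1 added). With all probe sets as rows 4 genes were called, with Pck1 in place of Slc2a2, and with 1 array left out the count was 0 to 4. The 2 calls in normal livers became 1 with median centring, with no filter, with the mean of probe sets, with all probe sets as rows, with the replicate block and with a crossed block, 0 with only the groups compared, 4 with a trended and robust prior (Fbp1 and Pcx added), 3 (Pcx added) with a filter at the 60th percentile, with 16 added or at an adjusted p under 0.1, and 0 to 1 with 1 array left out. The replicate numbers are shared by the labels alone, so a call lost with the block does not measure its strength. The count at 24 h between genotypes, 0, became 1 with 16 added and 2 (Gys2 and Pcx) with that prior, which also gave 1 (Gys2) for the difference between responses. With 1 array left out, its group has 1 array that is assumed to vary like the others.

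Most signs that turned were of values near 0, but the response of G6pc in Tob1KO-labelled livers was -0.42 ± 0.61. With the deposited values, the response of Gys2 in normal livers (-0.0282), the difference between responses of Fbp1 (-0.11) and Slc2a2 (0.02795) and the genotype difference of Pck1 at 0 h (-0.00855) turned. With median centring, the genotype differences of G6pc (0.0197) and Pygl (0.14) at 24 h and the difference between responses of Slc2a2 (0.14) did so. With the mean of probe sets the response of Pck1 in normal livers did (-0.19). With 1 array left out, the ranges were -1.17 to 0.33 for the response of G6pc in Tob1KO-labelled livers, -0.0618 to 0.29 for Pck1 and -0.0125 to 0.097 for Gys2 in normal livers. For the genotype difference they were -0.91 to 0.59 for G6pc and -0.28 to 0.17 for Pygl at 24 h, and -0.11 to 0.14 for Pck1 and -0.18 to 0.10 for Pklr at 0 h. For the difference between responses they were -0.15 to 0.16 for Fbp1, -0.0874 to 0.36 for Pygl and -0.066 to 0.0437 for Slc2a2. The cause was not tested.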
